A study of Mus musculus with 2 samples.

Results

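In the newborn mouse retina, 6 miRNAs had a most frequent read that began 1 base away from the annotated start: miR-140-3p, miR-361-3p, miR-504-5p, miR-345-3p, miR-330-3p and miR-1843b-5p. They were selected on 2 measured values, a shift of 1 base marked in both libraries and a level over 100 CPM (counts scaled to a common library size), and because they lie outside the larger miRNA families. They are 6 of the 1358 mature miRNAs listed and 6 of the 11 that had a shifted start in both libraries at a mean of 100 CPM or more. Start and level therefore stand as a description with no test. The retinas came from wild-type CD-1 mice, an outbred strain, at postnatal day 0, and the single group held 2 libraries, replicate 1 with 8337902 counts and replicate 2 with 8118208 counts. The labels do not say whether the libraries came from separate animals, so their spread measures only how these libraries differ. There was no condition to compare.

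A miRNA is cut from a hairpin by the enzymes Drosha and Dicer and loaded into an Argonaute protein. Drosha sets the 5′ end of the 5p arm and Dicer that of the 3p arm. Bases 2 to 8 from the 5′ end, the seed, pair with target mRNAs, so a start that moves by a single base gives a different seed. Such forms are known as 5′ isomiRs.

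The annotated sequence, which here is RefSeq's on GRCm38.p6, and the most frequent read of each miRNA are shown because the seed is what the shift alters. Capitals mark the seed, and the read is written in RNA letters. The read was the same in both libraries for all 6.
miR-140-3p annotated: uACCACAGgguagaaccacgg
miR-140-3p read: aCCACAGGguagaaccacggacu
miR-361-3p annotated: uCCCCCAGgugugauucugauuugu
miR-361-3p read: cCCCCAGGugugauucugauuugu
miR-504-5p annotated: aGACCCUGgucugcacucuauc
miR-504-5p read: gACCCUGGucugcacucuauc
miR-330-3p annotated: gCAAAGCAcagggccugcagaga
miR-330-3p read: cAAAGCACagggccugcagagagu
miR-345-3p annotated: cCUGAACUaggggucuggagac
miR-345-3p read: cCCUGAACuaggggucuggagu
miR-1843b-5p annotated: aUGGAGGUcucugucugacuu
miR-1843b-5p read: uAUGGAGGucucugucugacuu

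In 4 of the 6 the read began 1 base later than annotated (miR-140-3p, miR-361-3p, miR-504-5p and miR-330-3p), and in 2 it began 1 base earlier (miR-345-3p and miR-1843b-5p). Of the 6, 4 are 3p arms and 2 are 5p arms. Among all 180 miRNAs at 100 CPM or more, 8 of 83 3p arms (9.64%) and 2 of 94 5p arms (2.13%) had a shifted start in both libraries. The others with a shift of 1 base were miR-9-3p and miR-101a-3p of larger families, miR-135a-1-3p and miR-203-3p, and miR-3968 started 3 bases later. miR-203-3p also met both measured values of the selection but was not placed among the 6. The 6 described here held 30.5% of the mean CPM of the 11, counted over each named miRNA and not over the shifted read alone. The lowest of them was miR-330-3p at 119 ± 5.91 CPM (SD, n = 2). Below the level of 100 CPM, the nearest miRNA with a shift in both libraries was miR-136-3p at 72.7 ± 1.72 CPM.

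**Figure D1:**
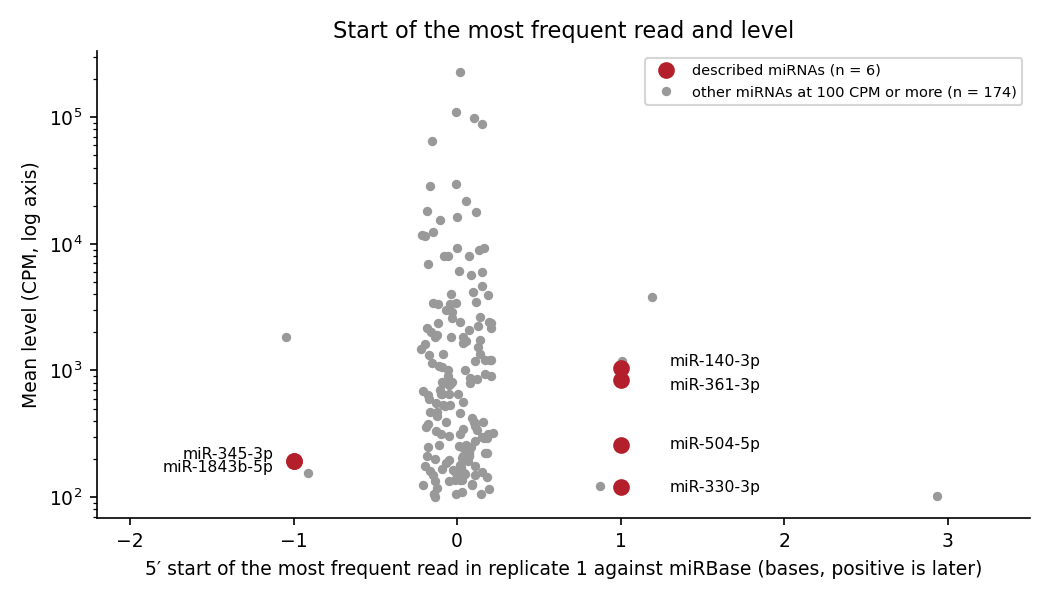
Start of the most frequent read in replicate 1 against miRBase, in bases, and mean level over both libraries in CPM on a log axis, for the 180 miRNAs at 100 CPM or more. Points of other miRNAs are spread sideways for legibility. The 6 described miRNAs lie at 1 base later or 1 base earlier, while most of the other 174 lie at 0, and the grey point just above miR-140-3p is miR-101b-3p, named after its values were seen, which was shifted in replicate 1 but not in replicate 2.

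Of the 6 read seeds, 5 matched the annotated seed of no other listed miRNA with a RefSeq entry, against 4 of the 6 annotated seeds. Among the listed miRNAs with a RefSeq entry, the read seeds of miR-140-3p, miR-361-3p, miR-504-5p, miR-345-3p and miR-330-3p matched no annotated seed, and that of miR-1843b-5p matched 1, miR-1843a-5p. Of all miRNAs at 100 CPM or more with an entry, 90 of 161 (55.9%) had an annotated seed that no other listed miRNA with an entry shared. The 6 were chosen from outside the larger families, which favours unshared annotated seeds, so their share cannot be weighed against this one. No such share was computed for read seeds. Read and annotated sequence differed in this for 3 of the 6. By their annotated sequences, miR-140-3p shares bases 2 to 8 with miR-497b and miR-330-3p with miR-6240, and their reads did not, while miR-1843b-5p shared a seed only by its read. The partners of the annotated seeds were low. miR-497b was at 10.2 CPM in replicate 1 and 7.76 CPM in replicate 2, and miR-6240 was at 1.20 CPM and 0.862 CPM. On bases 2 to 7 alone, the read of miR-504-5p shared its seed with the annotated miR-10a-5p (1.08 and 0.985 CPM) and miR-10b-5p (1.08 and 1.60 CPM), miRNAs of the Hox clusters, which is a shorter match than the seed used elsewhere here. The read of miR-140-3p likewise shared bases 2 to 7 with the most frequent read of miR-497b.

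The start of the miR-1843b-5p read is the annotated start of its paralog. The most frequent reads of miR-1843b-5p and miR-1843a-5p were the same 22 bases in both libraries. The windows below are the hairpin bases at that read, and the capital marks the base that differs.
Mir1843a hairpin: Uauggaggucucugucugacuu
Mir1843b hairpin: Cauggaggucucugucugacuu
The windows share 21 of 22 bases and differ by U1C, counted from 1 at the 5′ end of the read with the Mir1843a base first. The read carries the Mir1843a base and so lies whole in the Mir1843a hairpin, while against Mir1843b it differs by C1U (hairpin base first). Among the 150 miRNAs at 100 CPM or more that had an identical read in both libraries and a RefSeq hairpin, miR-1843b-5p was the only one whose read differed from its hairpin at the first base alone. The counting nevertheless gave miR-1843b-5p more than its paralog, with 1536.5 counts for miR-1843b-5p against 699.5 for miR-1843a-5p in replicate 1 and 1633 against 719 in replicate 2. These are ratios of 2.20 and 2.27, although both lists of reads are headed by one sequence, so the count of miR-1843b-5p is uncertain and its seed shift cannot be told apart from reads of miR-1843a-5p. Together the paralogs were at 268 CPM in replicate 1 and 289.7 CPM in replicate 2, and the opposite arm of the paralog, miR-1843a-3p, was at 10.4 CPM and 11.5 CPM. On GRCm38.p6, Mir1843b spans chromosome 1, 159340358 to 159340423, on the plus strand, in an intron of Cop1 and within the small Cajal body RNA Scarna3a. Mir1843a spans chromosome 12, 80391613 to 80391677, on the minus strand, in an intron of Dcaf5 and within Scarna3b.

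Of the 3p arms, 3 ended in a U that their hairpin does not hold. Against the hairpin, with its base first and positions counted from the 5′ end of the read, miR-140-3p differed by A23U, miR-345-3p by A22U and miR-330-3p by G24U, in each case the last base and the only difference. The reads of miR-361-3p and miR-504-5p lay whole in their hairpins. So 3 of the 4 3p arms described here (75.0%) had a last base off the hairpin and none of the 2 5p arms did. Among the other miRNAs at 100 CPM or more with a RefSeq hairpin and an identical read in both libraries, 4 of 65 3p arms (6.15%) and 1 of 76 5p arms (1.32%) did, each with a U. The 3′ end was not used in choosing the miRNAs, but 4 arms are too few to set this share against the others, and the pattern was seen in these data. The reference genome is of another strain than CD-1, so an added base and a strain difference cannot be told apart from the letters.

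**Figure D2:**
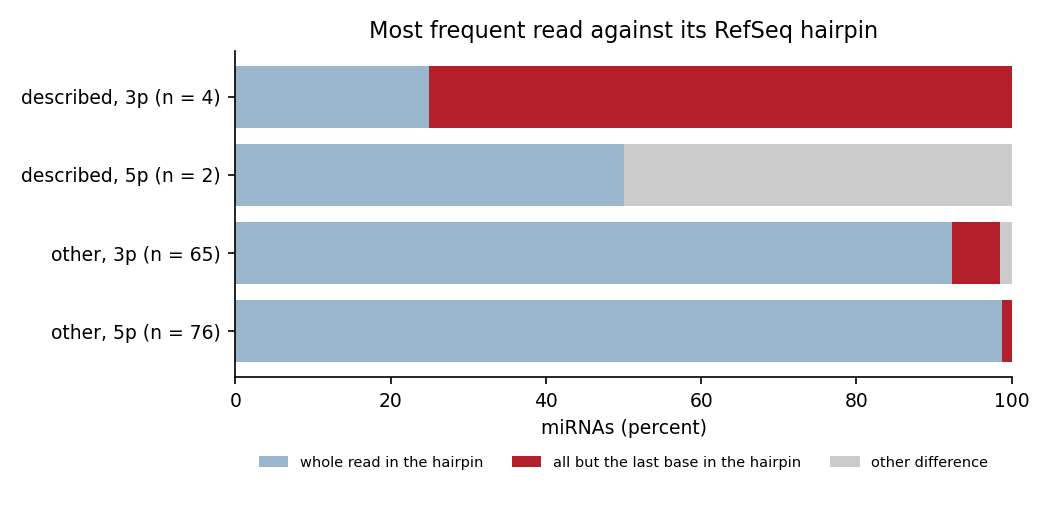
Percent of miRNAs whose most frequent read lay whole in the RefSeq hairpin, lacked a match at the last base only, or differed otherwise, for the described miRNAs above the other miRNAs at 100 CPM or more. Of the 4 described 3p arms 3 differed at the last base, against 4 of 65 other 3p arms, and the other difference of the described 5p arms is the first base of miR-1843b-5p.

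The reads of the 6 were 21 to 24 bases long with a median of 22.5, against 18 to 25 with a median of 22 for the others at 100 CPM or more. U, the most common first base of miRNAs, began 1 of the 6 reads (miR-1843b-5p), against 85 of 169 (50.3%) of the others with an identical read in both libraries. C began 3 of the 6 (miR-361-3p, miR-345-3p and miR-330-3p, all 3p arms), against 34 of 169 (20.1%). Of those others, U began 39.0% of the 3p arms and 60.7% of the 5p arms, and C 26.0% and 14.6%. Except in miR-1843b-5p, whose U is the Mir1843a base where its own hairpin has C, the first base follows from the shifted start. That start is how the 6 were chosen, so these shares are a description only. Against the annotated sequence, miR-140-3p and miR-361-3p began with A and C in place of U, miR-504-5p with G in place of A, miR-330-3p with C in place of G and miR-1843b-5p with U in place of A, while miR-345-3p began with C in both.

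In level, the 6 fell into a high pair and a lower group of 4. Together they held 2568 CPM in replicate 1 and 2728 CPM in replicate 2, which is 0.265% ± 0.0113 of the counts (SD, n = 2). miR-140-3p and miR-361-3p made up 71.2% of this. A level compared between miRNAs holds the ligation yield of each sequence as well as its amount, and in a whole tissue fewer cells with a miRNA and less of it per cell cannot be told apart. Counts are per named miRNA, so levels and arm ratios are not those of the shifted read alone. The share of reads with the shifted start was not measured.

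miR-140-3p, from a hairpin known for its role in cartilage of the mouse, was the highest. It had 973 CPM in replicate 1 (952 to 994, exact binomial 95% bounds) and 1113 CPM in replicate 2 (1089.9 to 1136), for a mean of 1043 ± 99.1 CPM and rank 72 of 1358. The intervals did not overlap. Its hairpin Mir140 lies on chromosome 8, 107551244 to 107551313, plus strand, in an intron of the 3 protein-coding transcripts of the ubiquitin ligase gene Wwp2 that span it and in an exon of 1 retained-intron transcript.

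miR-361-3p had 834 CPM in replicate 1 (814 to 853) and 850.4 CPM in replicate 2 (830.5 to 871), a mean of 842 ± 11.9 CPM and rank 80, with overlapping intervals. Mir361 lies on chromosome X, 113074824 to 113074893, minus strand, in an intron of Chm, which encodes a Rab escort protein and whose loss in humans causes the retinal degeneration choroideremia.

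miR-504-5p had 252 CPM in replicate 1 (241 to 263) and 265 CPM in replicate 2 (253.5 to 276), a mean of 258 ± 9.17 CPM and rank 124, again with overlapping intervals. Mir504 lies on chromosome X, 59097658 to 59097736, minus strand, in an intron of Fgf13, a gene for an intracellular fibroblast growth factor homolog of neurons.

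miR-345-3p had 202 CPM in replicate 1 (193 to 212) and 184 CPM in replicate 2 (175 to 193), a mean of 193 ± 13.1 CPM and rank 143. Mir345 lies on chromosome 12, 108836973 to 108837068, plus strand, under 3 non-coding transcripts of Slc25a47, a mitochondrial carrier gene, 1 of which holds it in an exon.

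miR-1843b-5p, with the uncertain assignment above, had 184 CPM in replicate 1 (175 to 194) and 201 CPM in replicate 2 (191.5 to 211), a mean of 193 ± 11.9 CPM and rank 144. It and miR-345-3p could not be ordered, since miR-345-3p was higher in replicate 1 and miR-1843b-5p in replicate 2 (mean log2 ratio of miR-345-3p over miR-1843b-5p 0.0023 ± 0.19).

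miR-330-3p was the lowest, with 124 CPM in replicate 1 (116 to 131) and 115 CPM in replicate 2 (108 to 123), a mean of 119 ± 5.91 CPM and rank 171. Mir330 lies on chromosome 7, 19181465 to 19181562, plus strand, in an intron of the 5 protein-coding transcripts of Eml2, a gene for a microtubule-associated protein, and in an exon of 1 non-coding transcript.

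The other neighbours in the order lay apart by more than 2 SD of the log2 ratio, with the same sign in both libraries. The step from miR-361-3p to miR-504-5p was the widest, at a log2 ratio of 1.71 ± 0.031 (3.26-fold). miR-140-3p over miR-361-3p was 0.31 ± 0.12, miR-504-5p over miR-345-3p 0.42 ± 0.15 and miR-1843b-5p over miR-330-3p 0.69 ± 0.16. An SD from 2 libraries is imprecise. The miRNAs nearest in mean level over the 2 libraries were miR-24-3p for miR-140-3p (1073 ± 150.5 CPM), miR-130b-5p for miR-361-3p (856 ± 52.9 CPM), miR-421-3p for miR-504-5p (258 ± 30.7 CPM) and miR-222-3p for miR-330-3p (118 ± 9.81 CPM), while miR-345-3p and miR-1843b-5p were nearest to each other.

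The described arm was the more abundant arm of its hairpin in 5 of the 6, and miR-330-3p was the exception. Within each library the counts of both arms were set against equal shares (exact binomial test, two-sided, adjusted over 312 hairpins by Benjamini-Hochberg). A call needed an adjusted p below 0.05 and the same sign in both libraries, and a mean log2 ratio beyond 2 SD. All 6 were called, as were 89.4% of all hairpins tested, so this count is near the background. The listed arm had to pass 100 CPM and its opposite arm did not, which favours the listed arm.

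miR-504 was the most one-sided, with 2098 counts of miR-504-5p against 1 of miR-504-3p in replicate 1 and 2148 against 1 in replicate 2. The ratios of 2098 and 2148 had exact binomial 95% intervals of 376 to 82906 and 385 to 84880.5, so their size is poorly fixed. miR-1843b-5p exceeded miR-1843b-3p by a log2 ratio of 4.38 ± 0.13 (20.9-fold; miR-1843b-3p at 9.35 CPM in replicate 1 and 8.99 CPM in replicate 2), a ratio that rests on the uncertain count of miR-1843b-5p. miR-345-3p exceeded miR-345-5p by 4.05 ± 0.18 (16.5-fold; miR-345-5p at 11.2 CPM in replicate 1 and 12.1 CPM in replicate 2).

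The remaining 3 hairpins used both arms more evenly. miR-361-3p exceeded miR-361-5p by a log2 ratio of 2.95 ± 0.22 (7.72-fold), with miR-361-5p at 120.3 CPM in replicate 1 and 98.7 CPM in replicate 2. miR-140-3p exceeded miR-140-5p by 1.72 ± 0.32 (3.29-fold), with miR-140-5p at 346 CPM and 289 CPM. miR-330-3p was below miR-330-5p by a log2 ratio of -0.72 ± 0.11 (0.608-fold), with miR-330-5p at 215 CPM and 179 CPM, and the adjusted p was 1.07e-46 in replicate 1 and 1.92e-26 in replicate 2 (exact binomial test). A ratio of 4-fold or more in both libraries was reached by 4 of the 6 (miR-504, miR-345, miR-361 and, with its uncertain count, miR-1843b), against 77.2% of all hairpins tested.

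**Figure D3:**
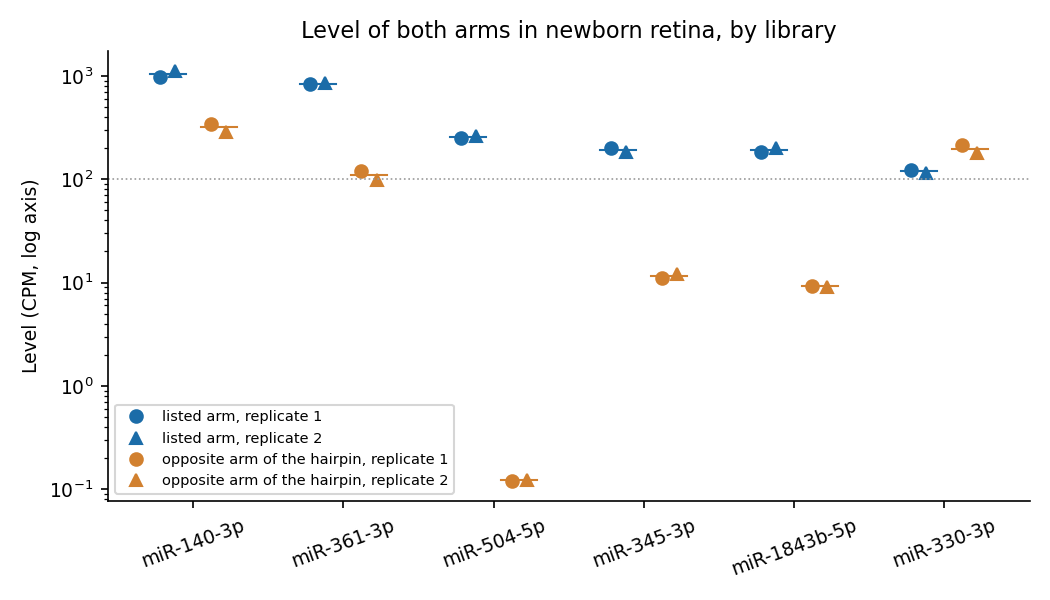
Level in CPM on a log axis of each described miRNA (blue) and the opposite arm of its hairpin (orange) in replicate 1 (circles) and replicate 2 (triangles), with the mean as a line. The dotted line is 100 CPM. The described arm lies above its opposite arm in both libraries in 5 hairpins, and miR-330-3p lies below miR-330-5p in both.

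The share of the 2 arms differed between the libraries by more than counting error for 2 hairpins. The ratio of miR-140-3p over miR-140-5p was 2.81 in replicate 1 (2.69 to 2.93) and 3.85 in replicate 2 (3.68 to 4.03), a difference of -0.45 on the log2 scale (Fisher's exact test, adjusted p = 2.23e-21 over 312 hairpins). The ratio of miR-361-3p over miR-361-5p was 6.93 in replicate 1 (6.48 to 7.41) and 8.62 in replicate 2 (8.01 to 9.28), a difference of -0.31 (adjusted p = 0.000287, Fisher's exact test). The test sets 1 library against 1 library and covers counting error only. The intervals did not overlap for either hairpin. The other 4 hairpins were not called, with differences from -0.18 to 0.25. Over all hairpins 8.65% were called. That share covers hairpins of all levels and none was taken at the level of the 6, so the 2 calls cannot be weighed against it. An arm ratio does not depend on the scaling of the libraries. This comparison was added after the levels had been seen.

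Of the opposite arms, 2 were themselves shifted, in the same direction as the most frequent read of the described arm. For miR-1843b this direction is uncertain, since the shift of its 5p read cannot be told apart from reads of miR-1843a-5p. The most frequent reads of miR-345-5p (93 counts in replicate 1 and 98 in replicate 2) and of miR-1843b-3p (78 and 73 counts) began 1 base earlier than annotated in both libraries. The read and the annotated sequence of miR-345-5p are shown, with the seed in capitals, because both arms of that hairpin were shifted.
miR-345-5p annotated: gCUGACCCcuaguccagugcuu
miR-345-5p read: uGCUGACCccuaguccagugcu
The reads of miR-140-5p, miR-361-5p and miR-330-5p began at the annotated base in both libraries. That of miR-504-3p rested on 1 count in each library and differed between them. Across all arms with 50 counts or more in each library, these and the described arms included, 31 of 372 (8.33%) were shifted in both. Of all miRNAs at a mean of 10 to under 100 CPM, 23 of 185 (12.4%) were. Neither share is matched in level to the opposite arms.

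Between the libraries these 6 miRNAs differed by at most 0.31 on the log2 scale, and which of them passed the test depended on the scaling. For each miRNA the share of its counts in replicate 1 was set against that expected from the table totals (exact binomial test, two-sided), adjusted by Benjamini-Hochberg over the 710 miRNAs with at least 10 counts over both libraries. The test covers counting error only and compares libraries, not conditions. By table totals 3 of the 6 were called, against 27.9% of all tested and 78.3% of the 180 at 100 CPM or more. miR-140-3p had a log2 ratio of replicate 1 over replicate 2 of -0.19 (adjusted p = 1.50e-17, exact binomial), miR-1843b-5p of -0.13 (adjusted p = 0.0485, exact binomial) and miR-345-3p of 0.14 (adjusted p = 0.0275, exact binomial). miR-361-3p (-0.029), miR-504-5p (-0.072) and miR-330-3p (0.10) were not called.

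All tested miRNAs had a median log2 ratio of 0.12 with table totals, 0.0037 with TMM factors and 0.020 with DESeq2 size factors, so the scalings differ by about the size of these ratios. By TMM 4 of the 6 were called, against 26.3% of all tested and 75.6% of those at 100 CPM or more, and by DESeq2 size factors 4, against 26.6% and 76.7%, so neither count stands out at this level. These were miR-140-3p (-0.31 by TMM and -0.30 by DESeq2), miR-361-3p (-0.15 and -0.13), miR-504-5p (-0.19 and -0.17) and miR-1843b-5p (-0.25 and -0.23), all lower in replicate 1 than in replicate 2. miR-345-3p (0.020 and 0.037) was then not called, and the sign of miR-330-3p turned (-0.017 and -0.0010). Under each scaling miR-140-3p had the widest difference of the 6, while miR-140-5p had the opposite sign (0.26 with table totals, 0.14 with TMM and 0.16 with DESeq2). An opposite sign under each scaling was also seen for miR-361-5p (0.29, 0.17 and 0.18) and for miR-345-5p (-0.11, -0.23 and -0.22, not called). It did not hold under every scaling for miR-330-5p, miR-1843b-3p and miR-504-3p.

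**Figure D4:**
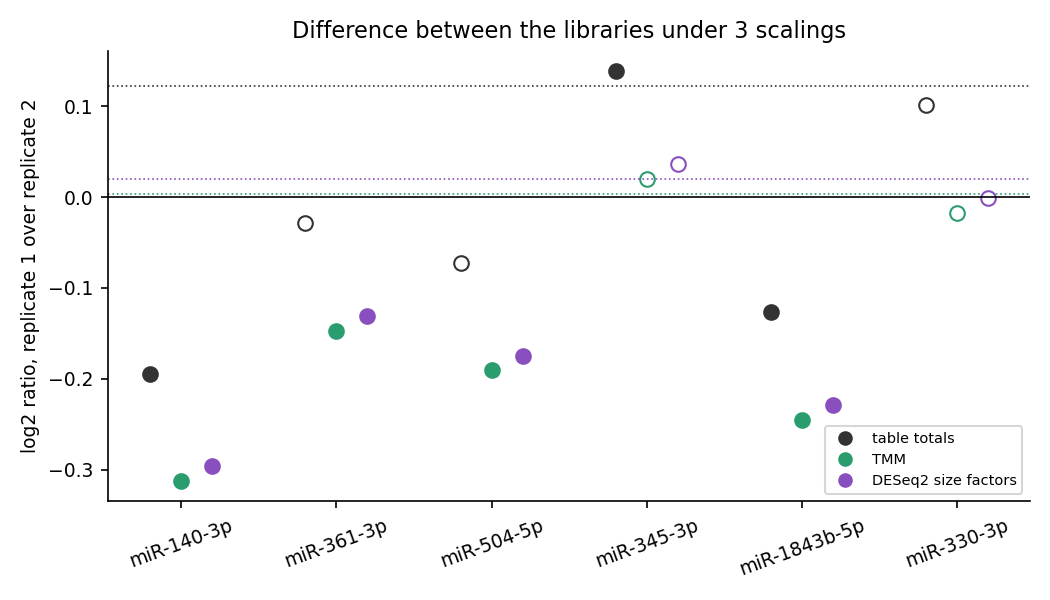
log2 ratio of replicate 1 over replicate 2 for each described miRNA, scaled by table totals, TMM or DESeq2 size factors. Filled points passed the exact binomial test at an adjusted p below 0.05 and open points did not, and each dotted line is the median of all tested miRNAs in that scaling. miR-140-3p lies lowest under each scaling, and miR-330-3p changes sign between table totals and the other scalings.

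The libraries held 4 miRNAs known from neural retina, listed as markers with earlier results of these data known. The 4 markers miR-9-5p, miR-182-5p, miR-183-5p and miR-96-5p made up 39.8% of the counts in replicate 1 and 41.9% in replicate 2. The 12 markers of other eye tissues, muscle, cartilage, blood, vessels and liver made up 0.595% and 0.511%. Their sum was 5946 CPM in replicate 1 and 5107 CPM in replicate 2, against 2568 and 2728 CPM for the described miRNAs together. The highest were miR-204-5p (3784 and 2994 CPM), miR-126a-3p (969 and 840 CPM) and miR-184-3p (738 and 869 CPM). Of the 12, 3 (miR-150-5p, miR-205-5p and miR-223-3p) had no count in either library, where 3 counts would be 0.36 and 0.37 CPM. One marker in that list, miR-140-5p for cartilage and connective tissue, is the opposite arm of miR-140-3p, and the part of such tissue in the level of miR-140-3p was not tested.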

How the data were processed

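Per the labels' protocols, RNA between 18 and 30 nt was cut from a gel and made into libraries by adapter ligation. Per the submitters' processing notes, bcl2fastq 2.17.1.14 was used. The aligner is not given in the sources used here, nor are the counter and build. The deposited table of estimated counts was rounded for every test. Its values were fractional in 6.77% of miRNAs for replicate 1 and 5.96% for replicate 2. The deposited CPM table, scaled by the authors to a larger total, was used as an alternative. CPM here is the count over the table total, 1.13 times the deposited CPM in both libraries. The most frequent reads carry marks against miRBase release 21, per the file headers.

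A start offset was read from those marks. In replicate 1 they fitted the RefSeq sequence for 784 of 786 detected miRNAs with an entry, and 1152 of the 1358 had one. Log2 ratios used counts with 0.5 added. Host genes came from GENCODE M21. Intervals are exact (Clopper-Pearson) and, like limits of 3 counts, cover counting error only, since amplified reads are not independent molecules.

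The members and lists were chosen with earlier results of these data known. Named miRNAs were the 6, their opposite arms, the miR-1843a arms, miRNAs sharing a seed, the nearest in level, the shifted miRNAs around 100 CPM, miR-9-3p and miR-101a-3p. The alternatives were other scalings, count and level minimums, a shorter seed, another added count and leaving out a library. Tools were SciPy 1.17.1, statsmodels 0.14.6, pandas 2.3.3, NumPy 2.4.6 and matplotlib 3.10.9 in Python 3.11.15, and R 4.3.3 with edgeR 4.0.16 (TMM) and DESeq2 1.42.0 (size factors).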

Additional observations from a re-analysis of the deposited data

How the results depend on the processing

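The 6 miRNAs together were at 2648 CPM, at 2344 CPM in the deposited CPM, which divides by a larger total, at 2568 to 2728 CPM with a library left out, and at 2455 CPM without miR-1843b-5p, an alternative chosen after seeing the data. The 11 miRNAs with a shifted start became 5 at a minimum of 200 CPM and 15 at 50 CPM, where fewer and more miRNAs are included. Each library alone also gave 11, but not the same miRNAs, since in replicate 1 miR-101b-3p was included and miR-3968, at 91.3 CPM, was not. With bases 2 to 7 as the seed, 2 of the 6 reads shared a seed with the annotated sequence of another listed miRNA, against 1 with bases 2 to 8, and 3 shared it with the most frequent read of another (miR-140-3p with miR-497b, miR-504-5p with miR-10b-5p and miR-1843b-5p with miR-1843a-5p). The between-library ratio of miR-330-3p was 0.10 with table totals, -0.017 with TMM and -0.0010 with DESeq2 size factors, none of them called. With no filter on low counts, miR-1843b-5p was no longer called between the libraries, as more miRNAs were tested, and 2 of the 6 remained called. The 6 arm calls held with 1 added to each count, with no filter and in each library alone. No paired analysis was possible because there was a single group. Depth limits the arm ratio of miR-504, which rests on 1 count of the opposite arm.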

Other observations

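Of the other miRNAs at 100 CPM or more, 5 had a most frequent read that differed from the RefSeq hairpin at the last base only, with a U, in both libraries. They were miR-192-5p (1001 ± 84.4 CPM, SD, n = 2), miR-127-3p (529 ± 24.1 CPM), miR-760-3p (313 ± 16.3 CPM), miR-19a-3p (249 ± 11.9 CPM) and miR-19b-3p (222 ± 27.5 CPM), and all 5 started at the annotated base. They were singled out after their values were seen.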
